A study of Mus musculus with 4 samples.

Results

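The cells described here are the pre-granulosa cells of the mouse fetal ovary at E13.5, an embryonic day, the somatic cells that surround the germ cells and later form the follicle wall. They were chosen from measured values: at most 1 of 6 germ cell genes detected (Dazl, Ddx4, Dnd1, Mael, Dppa5a, Mov10l1), at least 3 of 5 supporting cell genes detected (Fst, Wnt4, Wnt6, Irx3, Runx1), and a mean of those 5 above the means of 5 mesothelial genes (Upk3b, Krt19, Krt7, Upk1b, Tm4sf5) and of 5 interstitial genes (Col1a1, Col1a2, Acta2, Mfap4, Tcf21). The rule gave 1793 of the 4842 cells of the E13.5 library, which is 37.0% (95% Clopper-Pearson interval 35.7 to 38.4), out of 19387 cells in the series. Of the 3900 E13.5 cells with at most 1 germ cell gene, the members were 46.0% (44.4 to 47.6).

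The series profiled single cells of gonads from XX embryos of C57BL/6 mice, a common inbred strain, at 4 stages 1 day apart, from E11.5 up to E14.5, with 1 library per stage. Gonads were dissociated with TrypLE, an enzyme mix, and sequenced as 10x Chromium 3′ libraries, in which each unique molecular identifier (UMI) stands for 1 captured RNA molecule. No group carried a mutation or a treatment, and the labels do not say how many embryos entered a library. Because a stage is 1 library, stage and library cannot be told apart, no difference was tested, and every interval below covers counting error only.

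Pre-granulosa cells are the ovarian counterpart of the Sertoli cells of the testis. In the XX gonad, WNT4 and RSPO1 act through β-catenin, and RUNX1 and FOXL2 act as transcription factors, to keep supporting cells on the ovarian path. Follistatin, the product of Fst, binds and blocks activins, and IRX3 is a homeodomain factor of early follicles. Pre-granulosa cells of the fetal ovary are known for leaving the cell cycle while carrying the CDK inhibitor p27, the product of Cdkn1b.

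The 4 libraries held 4787 to 4916 cells, and the E13.5 library held 69458291 UMIs. Members had a median of 10762 UMIs and 3060 detected genes, against 10168 UMIs in the 2092 other somatic cells, which are the remaining E13.5 cells with at most 1 germ cell gene and under 10% globin UMIs. Within that group, 520 cells had the mesothelial genes highest (mesothelial-gene cells, median 12698.5 UMIs), 969 had the interstitial genes highest (interstitial-gene cells, median 9184 UMIs) and 603 had neither. The libraries kept cells of different depth: 61.1% of members had at least 10000 UMIs, against 93.9%, 93.4% and 46.4% of those found by the same rule at E11.5, E12.5 and E14.5. Mitochondrial transcripts were a median 5.06% of UMIs in members and 3.44% in the other somatic cells. Scrublet marked 30 members (1.67%) and 16 other somatic cells (0.765%) as doublets, and these were kept. Across the 4 libraries 175 barcodes occurred in more than 1 library, and 29 members carried such a barcode.

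Levels are given as CPM, the UMIs of a gene scaled to a total of 1000000 UMIs, over the summed cells of a class, with exact Poisson 95% intervals in parentheses. A gene was called higher or lower when its CPM differed 2-fold or more with non-overlapping intervals, provided that it had 50 UMIs or more over both classes and reached 20 CPM in one of them. Against the other somatic cells, 429 of 6059 genes that could be called were higher in members (7.08%) and 449 were lower (7.41%), with a median log2 ratio of -0.03 over all genes. With cells scaled by the median of ratios the split was 452 higher and 432 lower. Since the rule used these same cells, differences between members and other E13.5 cells describe the chosen population and are not independent evidence for it.

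The label of these cells was compared with 5 markers: Fst and Irx3, which the rule used, and Cst8, Gng13 and Sorbs2, which it did not. Cst8 codes for a cystatin-family protease inhibitor, Gng13 for a G protein gamma subunit and Sorbs2 for an adaptor protein of actin-based adhesions. Fst stood at 351 CPM (343 to 359) in members and 7.81 CPM in the other somatic cells, and Irx3 at 407 CPM (399 to 415) against 29.8 CPM. All 5 markers were higher in members, those of the rule by its construction.

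Cst8 stood at 344 CPM (337 to 352) in members, 51.8 CPM in mesothelial-gene cells and 6.30 CPM in interstitial-gene cells. After each cell was thinned to 5000 UMIs, 72.9% of members (70.8 to 74.9) and 2.27% of interstitial-gene cells held a Cst8 UMI, and 87.8% and 4.95% did so without thinning. Cst8 was thus found in most members and seldom in interstitial-gene cells, whose share serves here as the low reference for stray RNA. Of the 8 genes whose RefSeq promoter windows were looked up (the rule's 5 genes with Cst8, Gng13 and Sorbs2), 7 had an entry, in 11 windows of 300 bases. Both strands were searched for the GATA4-type motif AGATAA, the TCF/LEF motif CTTTGA, the forkhead motif GTAAACA and the NR5A motif AAGGTCA. These occur in 11.2%, 16%, 3.65% and 4.72% of the 32851 windows of the table, in that order. The only match was AAGGTCA in the Cst8 window, 47 bases upstream of the start. It is shown because NR5A1, the factor that binds this kind of motif, is also described below, and the sequence holds the 250 bases before the start on the plus strand of the GRCm38.p6 build at chr2:148798589-148798838, with the matching letters in capitals.
Cst8 promoter: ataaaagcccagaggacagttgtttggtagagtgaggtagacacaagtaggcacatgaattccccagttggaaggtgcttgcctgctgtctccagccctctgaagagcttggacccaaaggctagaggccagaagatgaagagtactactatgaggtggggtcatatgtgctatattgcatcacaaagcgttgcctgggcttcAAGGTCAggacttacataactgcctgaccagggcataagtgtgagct
A match of letters is a description and not a shown binding site.

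Gng13 stood at 795 CPM (783 to 807) in members, 143 CPM in mesothelial-gene cells and 19.2 CPM in interstitial-gene cells. A Gng13 UMI was found in 72.2% of members (70.1 to 74.3) and in 7.74% of interstitial-gene cells after thinning, and in 80.4% and 12.49% without it. Detection was less rare in mesothelial-gene cells, of which 70.2% held no Gng13 UMI after thinning. Sorbs2 stood at 113 CPM (109 to 118) in members against 28.5 CPM in mesothelial-gene and 13 CPM in interstitial-gene cells. Its share of cells with a UMI was 41.6% (39.3 to 43.9) in members and 5.57% in interstitial-gene cells after thinning, and 64.6% and 9.6% without it. Relative to all other somatic cells, the log2 ratio was 3.21 (3.11 to 3.31) for Cst8, 3.06 (3.00 to 3.13) for Gng13 and 2.11 (1.98 to 2.24) for Sorbs2.

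**Figure D1:**
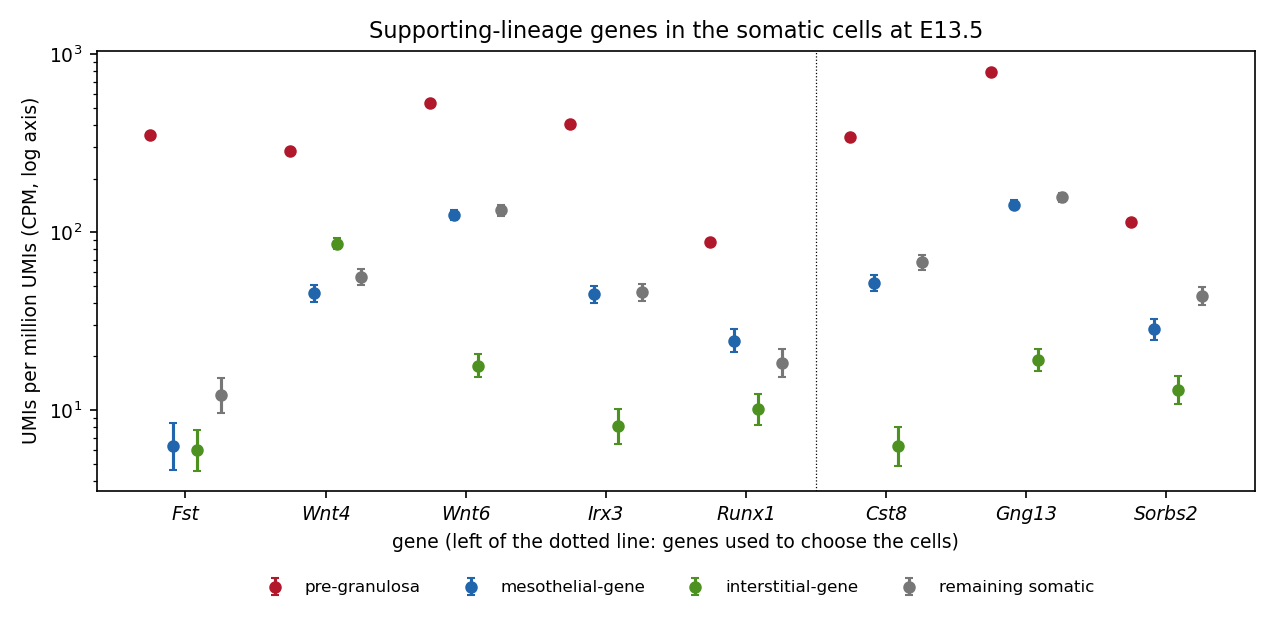
Levels in CPM (log axis) of the rule's 5 genes, left of the dotted line, and of Cst8, Gng13 and Sorbs2 in 4 classes of E13.5 cells, with exact Poisson 95% intervals as bars. Members lie highest for each of the 8 genes, and interstitial-gene cells lowest for Cst8, at 6.30 CPM against 344 CPM in members.

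The 5 markers summed to a median of 10 UMIs per member after thinning (5th to 95th percentile 1 to 24), and 42 members (2.34%) had none. Among the other somatic cells the median was 0, and 64.3% had none. At the edge of the rule, the 365 members with 3 supporting genes detected had Gng13 at 686 CPM and Cst8 at 284 CPM, whereas 182 cells that would have joined with 2 such genes had 412 and 145 CPM. The 80 cells kept out by a second germ cell gene had Gng13 at 673 CPM and Cst8 at 249 CPM. Cells just outside the rule therefore also carried both genes, at lower levels than the members with 4 supporting genes, which had 869 and 368 CPM.

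Foxl2, the best known transcription factor of granulosa cells, gave 6 UMIs in 6 of the 1793 members, or 0.269 CPM (0.0989 to 0.587). The other somatic cells gave 0 UMIs of Foxl2, which allows up to 0.127 CPM. Its level in members was 0.123 CPM at E11.5, 0.137 CPM at E12.5 and 0.244 CPM at E14.5, so it was at or near the level of 3 counts in every library. The name pre-granulosa thus rests here on the other genes and not on Foxl2.

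Outside the rule's own genes, the 12 genes with the largest ratios over the other somatic cells included enzymes and secreted proteins. Ccdc182, a coiled-coil protein gene, stood at 78.9 CPM (75.3 to 82.7) in members and 3.44 CPM in the other somatic cells, a log2 ratio of 4.52, and Bhlhe41, a basic helix-loop-helix repressor of the circadian clock, at 79.1 against 3.69 CPM (4.42). Gstm6, a glutathione transferase gene, stood at 151 against 11.1 CPM (3.77). The metallothionein gene Mt3 (3.99), the metalloprotease gene Adamts16 (3.99), the defensin gene Defb19 (3.71), Susd3 (3.89) and the unnamed transcripts Gm2044 (4.18) and E330017L17Rik (3.71) were also among the 12. The embryonic globin gene Hba-x (3.92) was another, and came from few cells: without the 7 members with at least 10% globin UMIs it stood at 26.0 CPM in members, beside 24.7 CPM in the other somatic cells.

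The 12 genes with the smallest ratios were mainly those of other cell types. S100a8, S100a9, Ngp and Camp, made by neutrophils, and Lyz2, Tyrobp, C1qa, C1qb and C1qc, made by macrophages and other myeloid cells, took 9 of the 12 places. S100a8 stood at 2.07 CPM in members and 159 CPM in the other somatic cells. The stromal proteoglycan gene Lum stood at 0.449 against 23.6 CPM, and the mesenchymal repressor gene Hic1 at 2.34 against 68.2 CPM. These ratios show what the mixed comparison group held as well as what members lacked.

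Marker sums of other cell types bear on each of these values. Summed over its list, the interstitial markers stood at 143 CPM in members and 1385 CPM in the other somatic cells, the endothelial at 110 and 337 CPM, the immune at 7.90 and 416 CPM and the mesothelial at 171 and 452 CPM. Of the immune genes that could be called, 7 of 7 were lower in members, of the interstitial 11 of 11, and of the endothelial 8 of 9. The interstitial and mesothelial lists include the genes of those names in the rule. Their lower values in members therefore follow in part from the selection. The pan-leukocyte gene Ptprc was at 0 in members, as was the neural crest gene Sox10. Germ cell markers summed to 35.9 CPM in members and 34.0 CPM in the other somatic cells. That list includes the germ cell genes of the rule, which were limited alike in both classes, so the close sums are partly set by the rule. The 7 globin genes summed to 5692 CPM in members and to 980 CPM without the 7 globin-rich members, beside 1074 CPM in the other somatic cells. What part RNA from other cells has in the genes called was not tested.

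Among 30 transcription factors of the gonad, 2 were higher and 6 lower of the 18 that could be called, with a median log2 ratio of -0.13. Over all genes that could be called, 7.08% were higher and 7.41% lower, and each list count against other somatic cells stands beside these shares. Nr5a1, the orphan nuclear receptor that early gonads and steroid-making cells need, stood at 79.7 CPM (76.0 to 83.5) in members and 33.3 CPM in the other somatic cells (1.26), and the homeobox gene Msx1 at 101 against 13.1 CPM (2.94). The lower genes included Nr2f2, a nuclear receptor gene of interstitial cells, at 39.0 against 231 CPM (-2.56), and Nr2f1, Maf and Sox11. With at least 4 supporting genes asked, members with 3 were counted among the other somatic cells. Nr5a1 missed the call ratio then (0.93) and with the rule on thinned counts (0.99). Maf missed it among thinned (-0.95) or deeper cells (-0.75). The factors shared by the whole gonadal soma differed by less than the call ratio. Wt1 stood at 494 CPM in members and 442 CPM elsewhere, Gata4 at 146 and 86.8 CPM, Lhx9 at 256 and 278 CPM, and Emx2 at 206 and 145 CPM.

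In the WNT pathway beyond the rule's Wnt4 and Wnt6, 1 of 15 genes that could be called was higher and 2 were lower, of 28 listed, with a median of -0.06. Over all genes the shares were 7.08% and 7.41%, so these small counts do not set the pathway apart. The higher gene was Lgr5, a receptor for R-spondins, at 37.9 CPM (35.4 to 40.6) in members against 10.6 CPM (1.84). Rspo1, the R-spondin ligand of ovary development, was at 154 CPM in members, 155 CPM in mesothelial-gene cells and 31.2 CPM in interstitial-gene cells. Members and mesothelial-gene cells thus held Rspo1 at nearly one level. The targets of β-catenin signalling Axin2 and Sp5 had log2 ratios of 0.59 and 0.95 and were not called. The lower genes were the non-canonical ligand Wnt5a, at 15 against 96.5 CPM (-2.69), and the secreted inhibitor Sfrp1, at 12.1 against 152 CPM (-3.65).

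Of 12 TGFβ and BMP family genes that could be called, 4 were higher and 3 lower, of 26 listed, with a median of 0.24. Inha and Inhbb, which code for the inhibin alpha and the inhibin/activin beta B subunits, stood at 63.6 against 11.2 CPM (2.50) and 29.2 against 11.1 CPM (1.39). Amhr2, the receptor of anti-Müllerian hormone, stood at 234 CPM (228 to 241) in members, 167 CPM in mesothelial-gene and 35.6 CPM in interstitial-gene cells. Bmp2, a BMP ligand, stood at 66.4 CPM against 29.7 CPM (1.16). Tgfb2 was lower in members, at 9.75 against 67.5 CPM (-2.79), as were the BMP target Id2, at 222 against 488 CPM (-1.13), and the BMP antagonist Nbl1 (-1.79). Inhba, the activin beta A subunit gene, stood at 0.359 CPM in members (8 UMIs) and 3.48 CPM elsewhere and could not be called. Bmp2 (0.79 with at least 4 supporting genes asked), Inhbb (0.94 with the rule on thinned counts) and Id2 (-0.89 in cells with at least 10000 UMIs) each lost their call under such an alternative.

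Of 9 other ligand genes that could be called, 2 were higher and 4 lower, of 17 listed, with a median of -0.05. Kitl, which codes for the KIT ligand that germ cells respond to, stood at 275 CPM (268 to 282) in members, 91.5 CPM in mesothelial-gene and 21.2 CPM in interstitial-gene cells. Gas6, a ligand of the TAM receptor kinases, stood at 259 against 65.8 CPM in the other somatic cells (1.97). The chemokine gene Cxcl12 was lower in members, at 1.89 CPM in members against 43.4 CPM (-4.53). The heparin-binding growth factor genes Ptn and Mdk stood at 31.1 against 447 CPM (-3.85) and 488 against 1619 CPM (-1.73), and Pdgfc was also lower. Of the 3 NOTCH pathway genes that could be called, of 15 listed, none was called, and the target Hes1 stood at 109 CPM in members and 84.1 CPM elsewhere.

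Of 7 retinoid genes that could be called, 1 was higher and 3 lower, of 15 listed, with a median of -0.83. Aldh1a1, a retinaldehyde dehydrogenase gene, stood at 79.8 CPM (76.1 to 83.6) in members, 37.7 CPM in mesothelial-gene and 2.85 CPM in interstitial-gene cells. It is also the 1 gene of the mesothelial list that was higher in members. The lower genes included the carriers of retinoic acid Crabp1, at 4.63 against 48.2 CPM (-3.38) and Crabp2 (-1.53). Cyp26b1, which codes for an enzyme that breaks down retinoic acid, stood at 1.39 CPM in members. Aldh1a2, the main retinoic acid synthesis gene of the mesonephric region, stood at 44.0 against 78.4 CPM (-0.83) and was not called.

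Of 14 steroid synthesis genes, 13 were in the table and 1 could be called, Scarb1, which was not called (0.18). Hsd3b1, which codes for 3β-hydroxysteroid dehydrogenase, stood at 17.5 CPM in members and 0.594 CPM in the other somatic cells, under the 20 CPM asked for a call. Of 10 epithelial adhesion genes that could be called, of 16 listed, 1 was higher: Itga6, an integrin of cells that sit on a basement membrane, at 233 against 60.3 CPM (1.95). Of 10 basement membrane genes that could be called, of 14 listed, none was higher and 3 were lower, with a median of -0.63. Those were Nid2, Sparc, at 387 against 828 CPM (-0.99 and not called in cells with at least 10000 UMIs), and Fn1, at 7.32 against 64.5 CPM (-3.14). Of the Sertoli cell list, none could be called, and its sum was 73.0 CPM in members and 29.7 CPM elsewhere. Within it, Sox9, the Sertoli cell factor, stood at 15.9 CPM (14.3 to 17.6) in members and 4.54 CPM elsewhere, and Amh at 0.539 and 0.255 CPM.

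**Figure D2:**
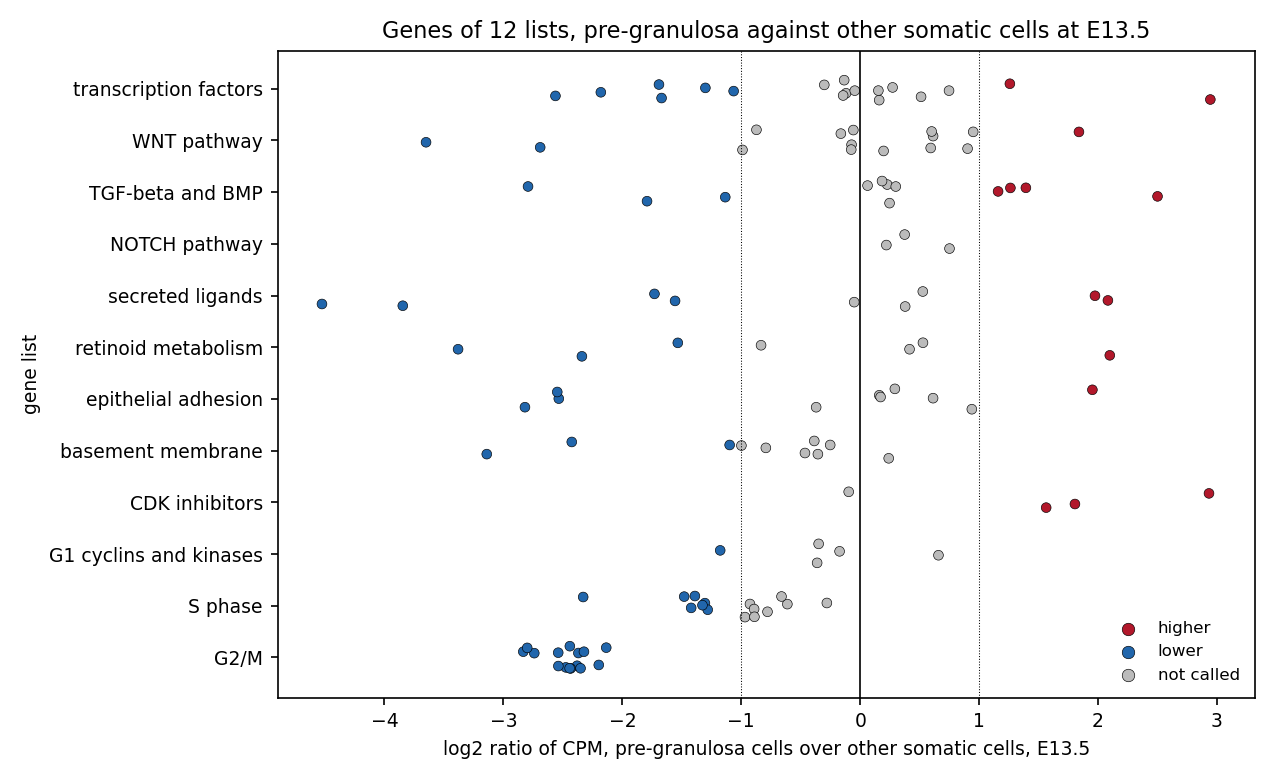
Log2 ratio of members over other somatic E13.5 cells for each gene that could be called, by gene list, with each point 1 gene, coloured by its call, and dotted lines at the 2-fold ratio. The G2/M genes all lie to the left, at a median of -2.44, and 3 of 4 CDK inhibitors to the right, at a median of 1.68.

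No cell cycle gene is in the rule, and the G2/M genes were lower in members. All 15 G2/M genes that could be called, of 16 listed, were lower in members, with a median of -2.44. Top2a, the topoisomerase of dividing cells, stood at 41.3 against 224 CPM (-2.44) and Mki67, the proliferation antigen, at 7.23 against 48.3 CPM (-2.74). Of 15 S-phase genes that could be called, 7 were lower and none higher, with a median of -0.97. The CDK inhibitors went the other way, with 3 of the 4 that could be called higher, of 7 listed, and a median of 1.68.

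Cdkn1b, which codes for p27, stood at 130 CPM (125 to 135) in members against 17.0 CPM in the other somatic cells (2.93). Cdkn1c, which codes for p57, stood at 2347 CPM (2327 to 2367) against 671 CPM (1.81), and Cdkn1a, which codes for p21, at 57.9 against 19.6 CPM (1.56, and 0.89 with no call under the rule on thinned counts). Of 5 genes that could be called in the list of G1 cyclins and their kinases, Ccnd1 was lower, at 18.0 against 40.7 CPM (-1.18). None was higher, and Ccnd2 stood at 325 and 366 CPM. After thinning, 91.5% of members held Cdkn1c but no Top2a UMI, 7.19% held both and 0.335% held Top2a alone. Members with a Top2a UMI were thus few, and nearly all of them also held Cdkn1c, which 98.7% of all members held. Cdkn1b was found with Top2a in 2.23% of members, and Top2a without Cdkn1b in 5.3%.

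By cell, 97 members (5.41%, 4.41 to 6.56) held at least 3 UMIs of the G2/M genes after thinning, and 13.9% did so without thinning. The share was 40.4% (36.1 to 44.7) in mesothelial-gene cells, 39.1% (36.0 to 42.3) in interstitial-gene cells and 35.8% (33.7 to 37.9) over all other somatic cells, 43.8% without thinning. Most members, 1160, held no G2/M UMI after thinning, and 536 held 1 or 2. The same share was 11% (9.67 to 12.3) in the E11.5 members, 9.52% (8.33 to 10.8) in those of E12.5 and 10.8% (8.58 to 13.4) in those of E14.5. The E13.5 interval lies below the other 3 over all members. In members with at least 10000 UMIs the shares were 11.3%, 10% (8.79 to 11.4), 7.66% (6.16 to 9.40) and 17.9% from E11.5 to E14.5, and the E12.5 and E13.5 intervals overlapped. Among the other somatic cells of all depths E13.5 was also the lowest, beside 53.7%, 57.7% and 54.9% in the E11.5, E12.5 and E14.5 libraries. The lower value of that library was therefore not limited to pre-granulosa cells, although mesothelial-gene cells were lower still at E14.5, at 36.3%. With at least 3 UMIs of the S-phase genes asked after thinning, the share was 52.7% (50.4 to 55.0) in E13.5 members. In the other somatic cells of E13.5 the S-phase share was 71.8% (69.9 to 73.8).

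**Figure D3:**
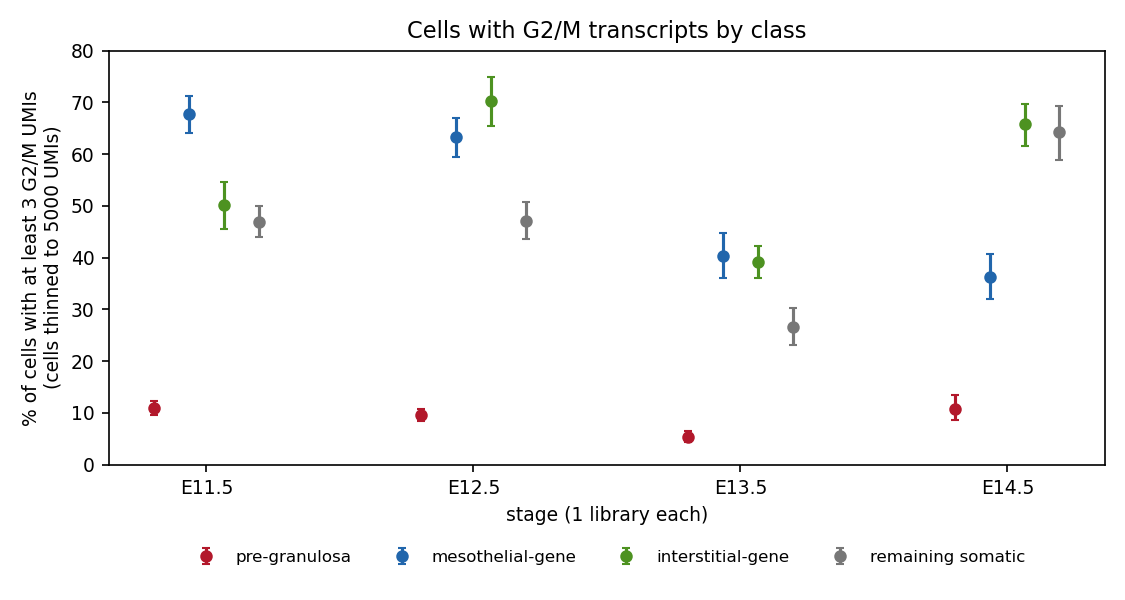
Share of cells with at least 3 G2/M UMIs after thinning to 5000 UMIs, by class and stage, with Clopper-Pearson 95% intervals. Members lie at 5.41% at E13.5 and between 9.52% and 11% at the other stages, below the other 3 classes drawn for the same library.

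The 97 members with G2/M transcripts were set against the 1160 members with none after thinning, from which they differed in depth and in doublet calls. Levels in this split are from unthinned counts, in which the 1160 members still held some G2/M UMIs, with Top2a at 6.95 CPM. The median of the 97 members was 17304 UMIs against 10489.5 in the 1160, and 14.4% against 0.776% were called doublets. Between them, 302 of 6010 genes were higher (5.02%) and 173 lower (2.88%) in the members with G2/M transcripts, and 309 and 235 of 5980 (5.17% and 3.93%) without the called doublets. Among the lower genes was Mro, at 1.72 against 26.1 CPM. Gm2044, at 28.6 against 138 CPM, and Ccdc182, at 18.9 against 84.7 CPM, were also lower, and both marked members against other cells. Of the 5 markers, Fst (137 against 370 CPM), Irx3 (204 against 419), Cst8 (171 against 361) and Gng13 (375 against 834) were called lower. Sorbs2 was not called, at 71.0 against 120 CPM, and Irx3 missed the call ratio without called doublets (-0.99). Cdkn1b was lower too, at 55.0 against 136 CPM. Gatm, which codes for the first enzyme of creatine synthesis, stood at 24.0 against 92.0 CPM.

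Among the higher genes were markers of other cell types. The endothelial gene Cldn5 stood at 36.1 against 2.15 CPM, the endothelial and stem cell gene Cd34 at 26.3 against 4.59 CPM, the mesothelial Upk3b at 87.6 against 16.3 CPM and the stromal Dcn at 22.9 against 5.59 CPM. Summed over their lists, germ cell markers, which the rule limited in all members, stood at 36.1 and 36.2 CPM. Endothelial markers stood at 271 against 77.4 CPM, interstitial markers at 284 against 126 CPM and mesothelial markers at 270 against 159 CPM. Without called doublets and globin-rich cells these sums were 319 against 78.0 CPM, 236 against 123 CPM and 254 against 158 CPM, so they were no closer for the endothelial list. Pf4, a platelet and macrophage chemokine gene, stood at 56.2 against 0.29 CPM without called doublets. Over all E13.5 members, 81.9% held no endothelial marker UMI after thinning, the 95th percentile was 1 and the highest value 40. A few cells may therefore carry such a sum, and how many did in this split was not examined. The part of depth, of doublets and of RNA from such cells in this split was not tested.

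Across stages, members were found in each library by the same rule: E11.5 gave 2164 (47.8% of cells with at most 1 germ cell gene), E12.5 gave 2216 (54.7%), E13.5 the 1793 described here and E14.5 gave 685 (32.2%). From E12.5 to E13.5 members differed little: 30 of 5747 genes were higher at E13.5 (0.522%) and 25 lower (0.435%), with a median of -0.04, and 31 and 17 with scaling by the median of ratios. From E13.5 to E14.5, 49 of 5901 genes were higher (0.83%) and 26 lower (0.441%), with a median of 0.10, and 38 and 36 with that scaling. Depth moved the counts of higher genes: in cells with at least 10000 UMIs they were 19 higher and 25 lower for E13.5 over E12.5, and 86 higher and 28 lower for E14.5 over E13.5. Of the 30 genes higher at E13.5 than at E12.5, 18 were also called among those cells, and of the 49 higher at E14.5, 40 were. Against E11.5, 186 of 5880 genes were higher at E13.5 (3.16%) and 232 lower (3.95%). These comparisons share the E13.5 library.

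From E11.5 to E14.5, Gng13 stood at 123, 433, 795 and 1123 CPM in members. No neighbouring intervals in that order overlapped, and each step after E12.5 was under the 2-fold call ratio (0.87 and 0.50 on the log2 scale). Among members with at least 10000 UMIs, Gng13 stood at 856 CPM (842 to 870) at E13.5 and 864 CPM (838 to 890) at E14.5, so the last step was not seen at that depth. In mesothelial-gene cells Gng13 stood at 9.2, 32.6, 143 and 583 CPM, so the same order held there. Cst8 stood at 146, 232, 344 and 371 CPM in members, and its log2 ratio was 0.57 for E13.5 over E12.5. Sorbs2 stood at 4.26, 42.8, 113 and 113 CPM and was called higher at E13.5 than at E12.5 (1.40). Its E13.5 and E14.5 levels did not differ beyond their intervals, and at E11.5 members held no more of it than the other somatic cells, which had 5.69 CPM.

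**Figure D4:**
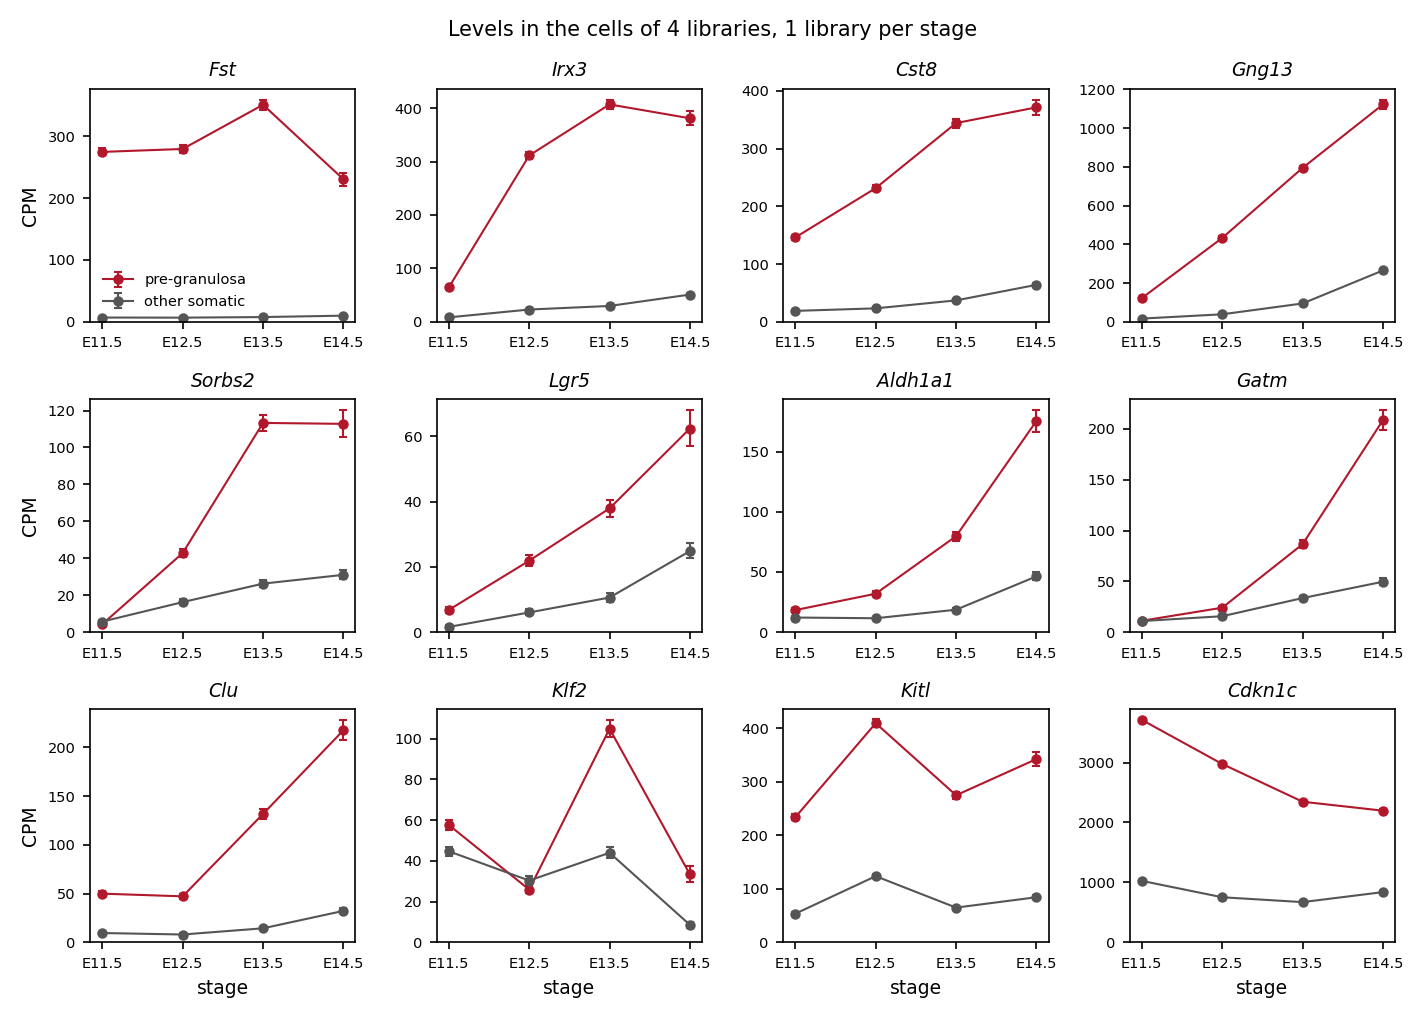
Levels (CPM, linear axes that start at 0 and differ between panels) of 12 genes by stage in members and in the other somatic cells of the same library, with exact Poisson 95% intervals as bars and lines that only join the 4 libraries. Gng13 in members stands at 123, 433, 795 and 1123 CPM, and Klf2 is highest in the E13.5 members, at 105 CPM.

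The 8 largest ratios of E13.5 over E12.5 in members were those of Klf2, Cited4, Gatm, Kazald1, Mt3, Gstm6, Clu and Pla2g1b. Gatm stood at 11.2, 24.0, 86.5 and 209 CPM from E11.5 to E14.5 in members, and at 33.5 CPM in the other somatic cells of E13.5. Gstm6 stood at 35.4, 50.2, 151 and 233 CPM, Mt3 at 2.45, 16.2, 49.2 and 39.8 CPM, and Clu, which codes for the secreted chaperone clusterin, at 49.9, 47.2, 132 and 218 CPM. Aldh1a1 stood at 18.3, 31.9, 79.8 and 176 CPM. Apart from Mt3, these genes were higher again at E14.5, though only Gatm (1.27) and Aldh1a1 (1.14) passed the call ratio there. In cells with at least 10000 UMIs, Clu stood at 49.4, 44.4, 73.5 and 208 CPM, so that it was called at E14.5 and not at E13.5 (0.73), and Gstm6 was called at both steps (1.02 and 1.32). Cited4, a transcriptional coactivator gene, stood at 8.44, 21.2, 77.5 and 90.4 CPM. Kazald1 and Pla2g1b, which code for secreted proteins, had log2 ratios of 1.70 and 1.45, and Kazald1 was not called in cells with at least 10000 UMIs (1.06).

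Klf2 and Jund were highest at E13.5 and lower again at E14.5. Klf2, an immediate-early zinc finger gene, stood at 57.6, 25.9, 105 and 33.3 CPM in members and at 44.7, 30.3, 43.9 and 8.56 CPM in the other somatic cells. Jund, an AP-1 subunit gene, stood at 195, 195, 494 and 161 CPM in members and at 172, 197, 359 and 98.6 CPM in the other somatic cells. Both genes had their highest value in members at E13.5, and Jund did so in the other somatic cells as well. In members with at least 10000 UMIs, Klf2 stood at 57.4, 24.8, 76.2 and 45.2 CPM, and its lower level at E14.5 was not called (-0.75). Hes1 stood at 37.1, 50.1, 109 and 109 CPM in members and was called higher at E13.5 (1.12).

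The genes lower at E13.5 than at E12.5 included histone and mitotic genes. The linker histone genes Hist1h1b and Hist1h1e stood at 8.49 against 50.6 CPM (-2.58) and 11.4 against 49.0 CPM (-2.10). In the other somatic cells Hist1h1b stood at 21.2 against 157 CPM, so the same difference was present outside the members. The mitotic genes Tpx2 (-1.27), Cenpe (-1.25) and Cenpf (-1.15) were lower too, and missed the call ratio in cells with at least 10000 UMIs (-0.96, -0.98 and -0.89). Igf2, the imprinted growth factor gene, stood at 129, 379, 161 and 153 CPM in members and at 97.6, 434, 112 and 113 CPM in the other somatic cells, with E12.5 the highest in both. S100a8 stood at 1.84, 20.4, 2.07 and 4.39 CPM in members, and its ratio of -3.30 turned to 1.42 under the rule on thinned counts. The muscle myosin light chain gene Myl1 stood at 106, 39.97, 14.51 and 16.2 CPM and Ereg, an EGF receptor ligand gene, at 63.4, 44.1, 16.7 and 9.76 CPM, both lower at each stage up to E13.5.

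Some genes that were highest at E11.5 were already low at E13.5. Cyp11a1, which codes for the first enzyme of steroid synthesis, stood at 54.9, 5.06, 2.11 and 1.71 CPM in members. Dmrt1, a transcription factor gene that the testis keeps, stood at 29.97, 8.52, 3.46 and 1.59 CPM, and Cst9, another cystatin-family gene, at 59.1, 11.6, 6.56 and 5.49 CPM. Hsd3b1 went the other way, at 1.69, 5.2, 17.5 and 39.3 CPM.

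Of the regulators of cell division and signalling, Cdkn1b stood at 78.4, 170, 130 and 137 CPM in members from E11.5 to E14.5, and Cdkn1c at 3712, 2976, 2347 and 2197 CPM. Kitl stood at 234, 409, 275 and 342 CPM, with E12.5 the highest, and in the other somatic cells it was also highest at E12.5. Lgr5 stood at 6.81, 21.9, 37.9 and 62.4 CPM, higher at each later stage, with ratios under the call for both steps around E13.5 (0.79 and 0.72). Axin2 stood at 15.1, 38.0, 50.9 and 76.5 CPM in members, and at 26.3, 47.7, 33.8 and 36.8 CPM in the other somatic cells.

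The differences of E14.5 members from those at E13.5 included genes of other cell types. The adult globin gene Hbb-bs stood at 5358 against 296 CPM, and at 571 against 142 CPM without the globin-rich members. The embryonic globin genes Hbb-bh1 (-3.42), Hba-x (-2.45) and Hbb-y (-1.61) were lower at E14.5. The mesothelial genes Upk3b (1.19), Krt19 (1.21) and Krt7 (1.01), of which Upk3b (0.69) and Krt7 (0.53) missed the call ratio in cells with at least 10000 UMIs, and the stromal genes Dcn (1.49), Mgp (1.14) and Ptn (1.16) were higher at E14.5. Their lists moved with them: the mesothelial sum was 358 CPM in E14.5 members and 171 CPM at E13.5, the interstitial sum 247 and 143 CPM, and the germ cell sum 81.8 and 35.9 CPM. The part of such RNA in the E14.5 values was not tested.

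Apart from these, Ly6d, a small GPI-anchored surface protein gene, stood at 0.368, 4.52, 14.4 and 59.1 CPM in members (2.04 for E14.5 over E13.5) and at 6.23 CPM in the other somatic cells of E14.5. Svs5, known as a seminal vesicle secretory protein gene, stood at 32.1 CPM at E14.5 against 5.93 CPM (2.44), and in mesothelial-gene cells at 48.2 against 8.8 CPM. Car2, a carbonic anhydrase gene, stood at 72.1 against 15 CPM (2.26), while the other somatic cells of E14.5 held 311 CPM. Nr4a1, an immediate-early nuclear receptor gene, was lower at E14.5 (-1.41), as were Klf2 (-1.65, with the limit of depth given above) and Jund (-1.62).

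By the Fano factor relative to genes of like mean, the 7 globin genes led among members, but only through the 7 globin-rich members. Without those cells Malat1, Actb and Gng13 led, at 10.1, 6.90 and 4.69 times their neighbours, and Hba-a1 was the highest globin gene, at rank 16. Gng13 had a mean of 4.04 UMIs per thinned member, a 95th percentile of 14 and a highest value of 32, while 498 members held none and 592 held at least 5. Its spread was chosen for a closer description after its value was seen. The share of members with at least 5 Gng13 UMIs was 2.22%, 16.9%, 33.0% and 55.0% from E11.5 to E14.5, and 40.5% (37.6 to 43.5) and 42.5% (37.0 to 48.1) at E13.5 and E14.5 among members with at least 10000 UMIs. At E13.5 it was 3.65% in mesothelial-gene and 0.103% in interstitial-gene cells.

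**Figure D5:**
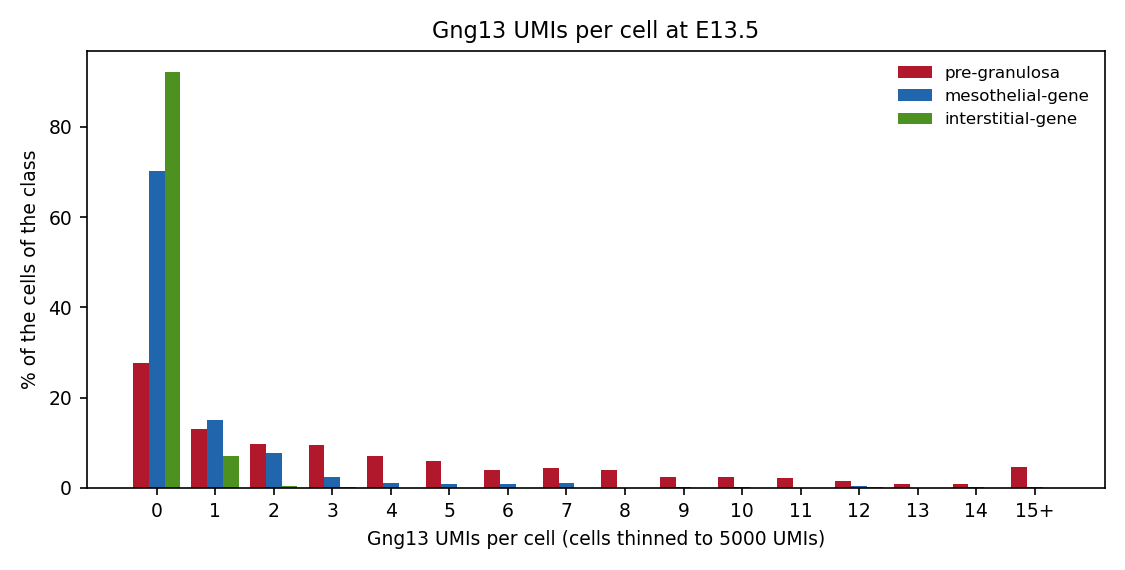
Share of cells (%) by their number of Gng13 UMIs after thinning to 5000 UMIs, in members, mesothelial-gene and interstitial-gene cells of E13.5. Among members, 498 of 1793 members held none and 592 held at least 5.

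The next split was set on thinned counts, so some of the 498 members with no Gng13 UMI held one without thinning. Between the 592 members with at least 5 Gng13 UMIs and the 498 with none, 36 of 5886 genes were higher in the first (0.612%) and 138 lower (2.34%), with a median of -0.13. Ly6d stood at 31.9 against 1.97 CPM, the peptidoglycan-binding protein gene Pglyrp1 at 60.1 against 10.8 CPM, the cystatin gene Cst12 at 77.7 against 24.4 CPM and Bmp2 at 85.9 against 32.6 CPM. Ly6d was thus higher in the members with more Gng13. Members with no Gng13 UMI after thinning held more Stra6, a retinol transporter gene, at 24.0 against 2.65 CPM. Pax8, a transcription factor gene of the rete ovarii, stood higher in them too, at 30.6 against 7.11 CPM. They also held more Osr2, at 24.0 against 4.32 CPM, and more Plk2, at 53.4 against 7.25 CPM.

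Depth and doublet calls moved with this split. The members with at least 5 Gng13 UMIs had a median of 11245.5 UMIs and 0.845% called doublets, against 9404.5 UMIs and 2.81% in those with none. Mitochondrial shares were 5.0% and 5.22%, and G2/M shares 2.03% and 8.84%. Markers of other cell types moved with it too. Endothelial markers summed to 70.3 CPM in the members with at least 5 Gng13 UMIs and 163 CPM in those with none, and interstitial markers to 90.3 and 208 CPM, with the collagen gene Col3a1 at 26.5 and 89.2 CPM. Mesothelial markers summed to 174 and 169 CPM. Erythroid markers summed to 948 and 14484 CPM, and to 948 and 1136 CPM without called doublets and globin-rich members, where the endothelial sums were 70.8 and 174 CPM and the interstitial 85.5 and 187 CPM. How many cells carried these sums was not examined, and the part of such RNA in the split was not tested. Without called doublets and globin-rich members, 35 of 5923 genes were higher (0.591%) and 133 lower (2.25%). Sox9 then stood at 7.05 CPM in the members with at least 5 Gng13 UMIs and 29.8 CPM in those with none, and Igf1, a growth factor gene, at 98.2 against 43.7 CPM. Over all members, a Pax8 UMI was found in 6.25% after thinning and in 12.2% (218 members) without it, against 2.92% and 5.50% of the other somatic cells.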

How the data were processed

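Gonad cells of 4 stages were measured by single-cell RNA-seq, 1 library each. The authors deposited 1 table of natural log values, ln(1 + UMIs of the gene divided by UMIs of the cell, times 10000), as its values show. Reads were processed with Cell Ranger 2.2.0 on mm10, per the submitters' processing notes; filters on cells and the normalization tool are not given in the sources used here. The table holds 19387 cells, where the study's design text speaks of about 20000.

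UMI counts were recovered from the deposited values: all 69792436 values above 0 were whole multiples of 1 UMI (relative tolerance 1e-06). The design had assumed deposited counts, and the recovered counts were used in their place. Counts were summed per class and library into CPM with exact Poisson intervals. Log2 ratios have exact binomial-split intervals, and shares have Clopper-Pearson intervals, all at 95%. A count of 0 was read against a floor of 3 UMIs. Cells were thinned to 5000 UMIs for shares. Doublets were called with Scrublet (scanpy 1.11.5, assumed rate 0.06) and kept. The calculations were tested on simulated data. Python 3.11.15, numpy 2.4.6, scipy 1.17.1, pandas 2.3.3 and matplotlib 3.10.9 were used.

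The genes named were the markers, the rule's genes, the 12 highest and 12 lowest of the called ratios against other somatic cells, the 8 highest and 8 lowest between stages, the genes of the lists and the 10 with the largest relative Fano factor (mean of at least 0.1 UMIs). Genes named outside that rule, among them those of the splits by G2/M transcripts and by Gng13, were chosen after their values were seen. The members and lists were chosen with earlier results of these data known. Promoter windows are from RefSeq (GRCm38.p6). Some genes that the naming rule takes are not reported here.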

Additional observations from a re-analysis of the deposited data

How the results depend on the processing

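No paired analysis was possible because each stage is 1 library and the values come from no test, and leaving out a replicate was not possible for the same reason. The member count was 1975 with at least 2 supporting genes asked, 1428 with at least 4, 1289 with no germ cell gene allowed, 1096 with at least 10000 UMIs and 1520 with the rule on thinned counts. The share of members with G2/M transcripts was 4.34% with at least 4 supporting genes, 7.66% with at least 10000 UMIs, 3.82% with the rule on thinned counts, 13.9% without thinning, 10.2% when 2 UMIs sufficed and 3.68% when 5 were asked. With a 4-fold ratio, 121 genes were higher and 196 lower than in other somatic cells, 1 higher and 3 lower at E13.5 than at E12.5, and 7 higher and 2 lower at E14.5 than at E13.5. With no CPM minimum these were 1247 and 1371, 246 and 170, and 255 and 99. In cells with at least 10000 UMIs, 19 genes were higher at E13.5 than at E12.5 and 86 at E14.5 than at E13.5. The sum of the 7 globin genes, with a log2 ratio of 2.41 in members over other somatic cells, reversed to -0.13 without globin-rich members and to -0.40 with erythroid cells kept among the other cells. Of the 40 gene ratios recomputed, none that was 2-fold or more changed direction. Smaller ratios could: Mt3 was lower at E14.5 than at E13.5 over all members. In cells with at least 10000 UMIs it stood at 36.2 CPM at E13.5 and 39.8 CPM at E14.5, with overlapping intervals. Outside the 40, S100a8 changed direction between E12.5 and E13.5. Without globin-rich members, 3 genes called against other somatic cells did so too. The 40 gene ratios gave 380 values under the alternatives. Of these, 252 moved by less than their counting interval and 128 by more, the most for Fst, from 5.49 to 3.54 with at least 4 supporting genes asked. With that setting, members with 3 supporting genes were counted among the other somatic cells, so both sides of the ratio changed. The cause of these shifts was not tested. The alternative without globin-rich members, and the shares and levels by stage in cells with at least 10000 UMIs, were chosen after seeing the data. Foxl2 and other genes near 3 UMIs per class have wide counting intervals, and the cause of the low Foxl2 count was not tested.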
